A study of Mus musculus with 6 samples.

Results

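P2ry14 and Gpr171 are neighbouring genes of G-protein-coupled receptors in a cluster on mouse chromosome 3, and both were higher in BCR-ABL1-transformed pre-B cells in which deletion of Sox4 had been induced. They are described here with P2ry13 and P2ry12 of the same cluster and with P2ry10, Gpr34 and Gpr183, relatives on other chromosomes, which makes 7 genes of the 19938 that the array's probe sets name singly. The genes were chosen by name, and the pair P2ry14 and Gpr171 was singled out because of its difference between the groups compared here. The differences of the 7 genes are therefore given as a description, without p-values.

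Total RNA was hybridised to 1 Affymetrix array per sample for 6 samples. All came from 129SvEv x C57BL/6J mice of 5 weeks, and all were Sox4fl/fl pre-B cells transformed by BCR-ABL1, a fusion tyrosine kinase found in human leukaemias, so they model leukaemia through that oncogene alone. The ERT2 group (3 samples) carried the tamoxifen-responsive oestrogen receptor domain alone, and the Cre-ERT2 group (3 samples) carried a Cre recombinase fused to it, which 4OHT (4-hydroxytamoxifen) activates. RNA was taken 24 h after 4OHT. Whether the 3 samples of each group were separate cultures is not stated, so errors and p-values describe variation among these arrays alone, possibly technical. No sample combined Cre-ERT2 with intact Sox4, so loss of Sox4 and activity of Cre cannot be told apart.

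Receptors of this branch sit in the cell membrane and pass signals from extracellular nucleotides, lipids or peptides to G proteins. P2RY14 responds to UDP-glucose and other UDP-sugars, and P2RY12 and P2RY13 respond to ADP. P2RY12 is best known from platelets and microglia. GPR171 is an orphan-like receptor for which a peptide of the proSAAS precursor has been proposed as ligand. P2RY10 and GPR34 respond to lysophosphatidylserine, and GPR183 (EBI2) responds to oxysterols and guides B cells within lymphoid organs. Not all of the 7 are thus purinergic in the sense of nucleotide receptors.

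As a check of the labels, Sox4 itself fell in the Cre-ERT2 samples to 40.3% of the control mean, with a log2 difference of -1.31 (SE 0.091, limma adjusted p = 0.000434). With 3 arrays a group, an exact permutation test (two-sided) cannot go below p = 0.1, and it gave that value. The arrays had median intensities from 273 to 279. Precision is limited by how few arrays there are. Over all genes 3.72% fell at an adjusted p under 0.05 from limma. Of 9 pre-B markers tested 7 did not pass and 2 fell, the recombinase genes Rag1 and Rag2. Their levels differed widely: Igll1, part of the surrogate light chain, had means of 18846 in ERT2 and 19026 in Cre-ERT2 samples, while Rag1 had 1255 and 673 and Rag2 had 596 and 235, the last below the median intensity of the arrays. Pax5, a B-lineage factor, had -0.22 (adjusted p = 0.0552) and passed as lower under 7 of 18 alternatives.

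The promoter sequences of the cluster are shown first, because P2ry14, P2ry13 and P2ry12 lie side by side and differed in their response. RefSeq (GRCm38.p6) gave windows of 300 bases, from 250 before to 50 after a transcription start, for 5 of the 7 genes: P2ry14 (4 windows), P2ry10, P2ry13, P2ry12 and Gpr183. Gpr171 and Gpr34 had no entry. Of the P2ry14 windows the 3 with a motif match are printed; the remaining one, chr3:59131069-59131368, overlaps the second and holds no match. Capitals mark matches on either strand to 4 short motifs: AACAAAG and AACAAT, cores bound by SOX factors, GAGGAAG, a core bound by the factor PU.1, and CAGCTG, an E-box.
P2ry14, chr3:59153443-59153742, minus strand: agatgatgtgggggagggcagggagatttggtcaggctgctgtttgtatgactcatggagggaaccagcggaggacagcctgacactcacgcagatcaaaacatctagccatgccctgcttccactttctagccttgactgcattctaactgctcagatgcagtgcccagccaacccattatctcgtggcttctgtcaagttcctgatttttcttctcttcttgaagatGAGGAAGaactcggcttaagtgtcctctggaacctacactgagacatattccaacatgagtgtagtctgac
P2ry14, chr3:59131279-59131578, minus strand: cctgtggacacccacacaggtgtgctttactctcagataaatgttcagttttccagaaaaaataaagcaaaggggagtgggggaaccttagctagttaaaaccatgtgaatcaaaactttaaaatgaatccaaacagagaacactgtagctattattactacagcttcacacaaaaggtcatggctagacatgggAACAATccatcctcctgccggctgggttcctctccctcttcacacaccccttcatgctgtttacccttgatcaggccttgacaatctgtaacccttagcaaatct
P2ry14, chr3:59130713-59131012, minus strand: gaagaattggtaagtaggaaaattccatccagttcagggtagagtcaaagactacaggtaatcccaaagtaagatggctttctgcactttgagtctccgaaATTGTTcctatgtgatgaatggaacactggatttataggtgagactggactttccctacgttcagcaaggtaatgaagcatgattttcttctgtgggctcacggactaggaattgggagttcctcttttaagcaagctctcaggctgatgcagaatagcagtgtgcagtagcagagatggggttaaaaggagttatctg
P2ry13, chr3:59210833-59211132, minus strand: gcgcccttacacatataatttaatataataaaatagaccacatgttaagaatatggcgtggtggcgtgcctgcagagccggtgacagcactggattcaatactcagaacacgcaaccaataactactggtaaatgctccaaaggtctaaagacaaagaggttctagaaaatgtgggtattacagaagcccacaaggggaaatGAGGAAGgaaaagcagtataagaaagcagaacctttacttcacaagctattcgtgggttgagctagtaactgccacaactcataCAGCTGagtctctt
P2ry12, chr3:59262936-59263235, minus strand: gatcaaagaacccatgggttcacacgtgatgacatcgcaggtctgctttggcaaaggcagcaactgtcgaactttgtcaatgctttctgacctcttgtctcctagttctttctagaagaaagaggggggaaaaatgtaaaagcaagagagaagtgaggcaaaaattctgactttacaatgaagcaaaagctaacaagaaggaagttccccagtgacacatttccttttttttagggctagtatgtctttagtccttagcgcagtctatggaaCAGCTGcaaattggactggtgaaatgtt
AACAAT occurred in 2 of the 4 windows of P2ry14, where it began 55 and 149 bases before the start, and in none of the other windows of the 5 genes. It is found in 10.7% of all 32851 promoter windows. That share is per window, and P2ry14, with 4 windows, had more places for a match than the other genes. AACAAAG occurred in 0 of the 9 windows of the 5 genes and is found in 5.85% of all windows. GAGGAAG, found in 13.6% of all windows, lay 21 bases before the most upstream start of P2ry14, 48 bases before that of P2ry13 and 30 bases before one start of P2ry10. CAGCTG, found in 16.3% of all windows, lay just after the starts of P2ry13 and P2ry12 and 14 bases before a start of P2ry10. None of these motifs was in the window of Gpr183. A match of letters is a description and does not show binding.

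P2ry14, the receptor for UDP-sugars (probe set 10498350), had intensities of 130, 160 and 153 on the ERT2 arrays and 347, 344 and 308 on the Cre-ERT2 arrays. All 3 Cre-ERT2 samples lay above all 3 controls, with a gap of 148 between the nearest values. The means were 148 ± 15.8 (SD, n = 3) and 333 ± 21.99 (SD, n = 3), a ratio of 2.25. On the log2 scale, on which 1 was added to each intensity, the difference was 1.17 (SE 0.094).

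Gpr171, which lies next to P2ry14 in gene order (probe set 10498345), had intensities of 1190, 1341 and 1119 on the ERT2 arrays and 2451, 2684 and 2691 on the Cre-ERT2 arrays. Here too the groups did not overlap. The means were 1217 ± 114 (SD, n = 3) and 2609 ± 137 (SD, n = 3), a ratio of 2.14 and a log2 difference of 1.10 (SE 0.081). Of 35556 probe sets, 0.276% had a log2 difference at or above that of P2ry14 and 0.329% at or above that of Gpr171. The pair was singled out by this same difference, so these shares describe its size and are no support for it.

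P2ry12, an ADP receptor at the other end of the cluster (probe set 10498371), was also higher, by a smaller step. Its intensities were 130, 140 and 140 on the ERT2 arrays and 196, 196 and 181 on the Cre-ERT2 arrays, with no overlap. The means were 137 ± 6.03 (SD, n = 3) and 191 ± 8.69 (SD, n = 3), a ratio of 1.40 and a log2 difference of 0.48 (SE 0.059). A difference at or above that of P2ry12 was seen in 2.22% of probe sets.

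P2ry13, the second ADP receptor (probe set 10498367), lies between P2ry14 and P2ry12 and had the opposite sign. Its intensities were 469, 586 and 495 on the ERT2 arrays and 453, 446 and 408 on the Cre-ERT2 arrays. The groups did not overlap, but the nearest values were 16.1 apart, which is less than the SD of the controls, 61.5. The log2 difference was -0.24 (SE 0.094), and it was -0.15 without ERT2 replicate 2, the array with the highest value.

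The 3 receptors outside the cluster showed small differences. P2ry10, a lysophosphatidylserine receptor on chromosome X (probe set 10601416), had intensities of 1152, 1347 and 1190 on the ERT2 arrays and 1369, 1377 and 1354 on the Cre-ERT2 arrays. The groups were 6.18 apart at their nearest values, because ERT2 replicate 2 lay close to the Cre-ERT2 arrays, and the log2 difference was 0.16 (SE 0.069). Its neighbour P2ry10b is a close copy, and where the array's probes do not separate the copies, their signals are uncertain.

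Gpr34, the other lysophosphatidylserine receptor (probe set 10598750), had intensities of 50.6, 52.0 and 48.1 on the ERT2 arrays and 49.6, 49.98 and 51.2 on the Cre-ERT2 arrays. The groups overlapped fully, with a log2 difference of 0.00054 (SE 0.050). Gpr183, the oxysterol receptor (probe set 10422496), had 156, 150 and 171 on the ERT2 arrays and 186, 155 and 180 on the Cre-ERT2 arrays. These groups overlapped as well, with a log2 difference of 0.12 (SE 0.088).

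**Figure D1:**
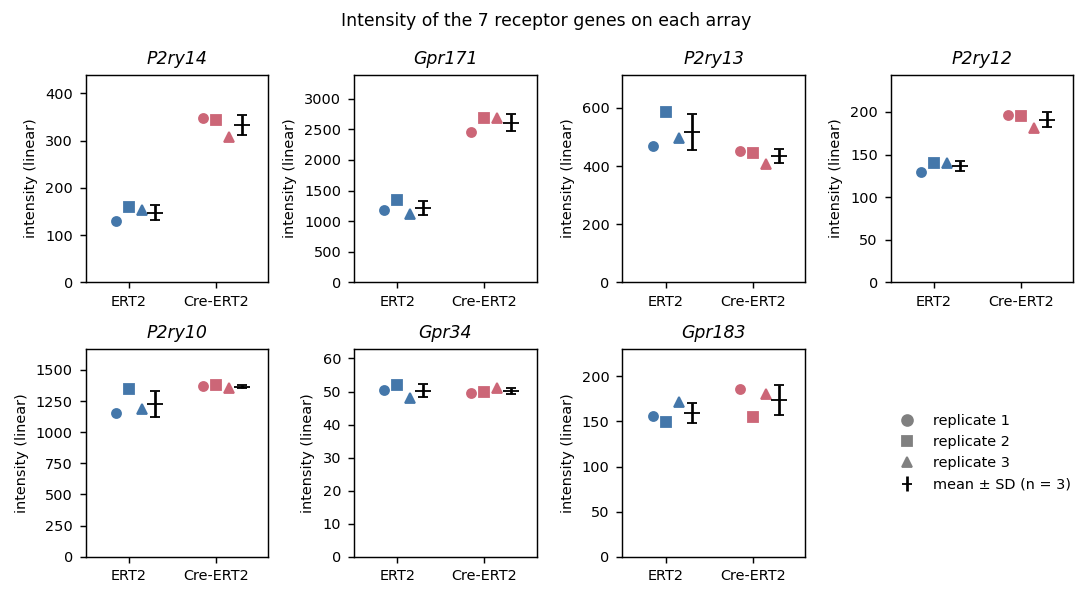
Linear intensity (vertical axis, from 0) of the 7 genes on the 3 ERT2 and 3 Cre-ERT2 arrays, with symbols for replicate numbers and black marks for the mean ± SD. P2ry14, Gpr171 and P2ry12 are higher on every Cre-ERT2 array, P2ry13 is slightly lower, and Gpr34 and Gpr183 overlap.

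In all, 4 of the 7 genes were higher without overlap between the groups, 1 was lower without overlap and 2 overlapped. Over all probe sets 23.3% did not overlap: 14.5% of all were higher and 8.85% lower. Nothing is read from these shares, since the pair was singled out by this contrast. For the same reason no calls are given for the 7 genes at the threshold of the tests below. That threshold was limma's adjusted p under 0.05 over all probe sets, which 6.05% of them passed, 3.21% as higher and 2.84% as lower. P2ry14, P2ry12, Gpr34 and Gpr183 belonged to the dimmer part of the table by mean intensity, and the files give no detection call, so whether a dim gene was above background is not known here. In bulk RNA, a change in the number of cells that express a gene and a change in RNA per cell cannot be told apart.

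Within the groups, P2ry14 and P2ry12 deviated in the same direction on all 6 arrays, and so did P2ry13 and P2ry10, which lie on different chromosomes. P2ry13 and P2ry14 shared the direction on 5 of 6 arrays, as did P2ry10 and P2ry14, so this is not particular to a pair. The log2 deviations of P2ry14 from its group mean were -0.18, 0.12 and 0.06 on the ERT2 arrays and 0.06, 0.05 and -0.11 on the Cre-ERT2 arrays. Those of P2ry12 were -0.07, 0.03 and 0.04, and then 0.04, 0.04 and -0.08. Gpr171 did not follow P2ry14 in this respect, with deviations of -0.03, 0.14 and -0.12 and then -0.09, 0.04 and 0.05. The pair, singled out by the step between the groups, had the same direction inside them on 3 of 6 arrays. Deviations from a mean of 3 arrays cancel out, which limits the patterns of signs. Some signs rest on values as small as 0.003 (P2ry10 on Cre-ERT2 replicate 1). How often other pairs of genes agree was not computed, so nothing is read from these counts.

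**Figure D2:**
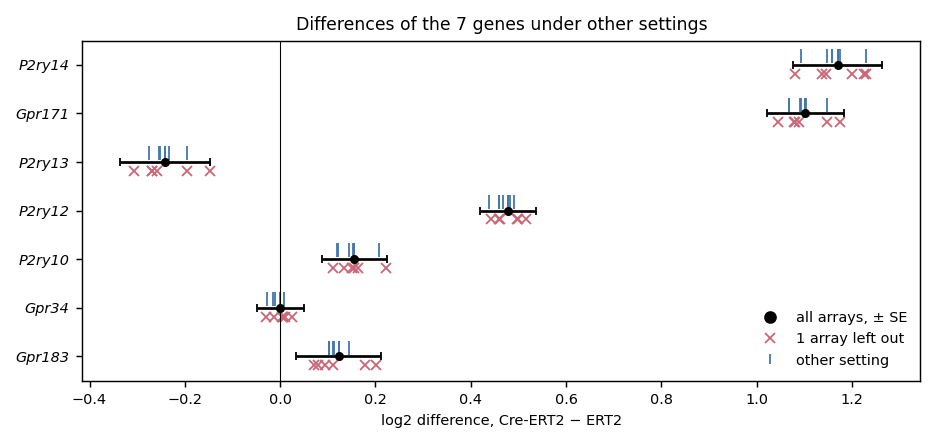
Log2 difference between Cre-ERT2 and ERT2 samples (horizontal axis) of the 7 genes with all arrays (black, with SE), with 1 array left out (crosses) and under other settings (bars). P2ry14 stays between 1.08 and 1.23 and Gpr171 between 1.04 and 1.17.

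The setting of each receptor in its locus was then compared, with the 4 protein-coding genes on either side in the order of the RefSeq gene table. Of these genes 30 were tested, of which 6 rose and 1 fell, where 4.38% of all genes rose and 3.72% fell. The cluster on chromosome 3 lies within the span of Med12l, a gene of the Mediator family on the opposite strand to P2ry14, P2ry13 and P2ry12. Med12l had a log2 difference of 0.20 (SE 0.065, limma adjusted p = 0.165), and its intensities were 247, 263 and 267 in the ERT2 samples and 320, 285 and 290 in the Cre-ERT2 samples. It passed the threshold under 1 alternative, estimated array weights (adjusted p = 0.0494). Igsf10 on the far side had a difference of -0.03 (SE 0.050, adjusted p = 0.839), and Siah2, a ubiquitin ligase on the near side, had 0.18 (SE 0.068, adjusted p = 0.227). Of the 7 genes tested around the cluster Erich6, the most distant on the near side, rose by 0.32 (SE 0.051, adjusted p = 0.0150), and it lost its call when any array but ERT2 replicate 2 was omitted (0.0531 to 0.0722).

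Around Gpr183 the adjacent receptor gene changed. Gpr18, whose product is a lymphocyte receptor for lipid and related ligands (probe set 10422493), had intensities of 780, 744 and 729 on the ERT2 arrays and 1997, 1993 and 1935 on the Cre-ERT2 arrays. Every Cre-ERT2 array was far above every control. Gpr18 rose by 1.39 on the log2 scale (SE 0.049, limma adjusted p = 4.0e-05), a ratio of 2.63, while Gpr183 beside it had 0.12. Both genes lie within the span of Ubac2, whose own difference was 0.14 (SE 0.056, adjusted p = 0.274). None of the other 7 genes tested around Gpr183 passed the threshold.

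Around P2ry10 the genes moved in both directions. Gpr174, the third lysophosphatidylserine receptor of lymphocytes, had 453, 528 and 476 on the ERT2 arrays and 691, 764 and 787 on the Cre-ERT2 arrays, and it rose by 0.62 (SE 0.080, limma adjusted p = 0.00595). P2ry10b had 1039, 1356 and 1052 on the ERT2 arrays and 734, 833 and 782 on the Cre-ERT2 arrays, and it fell, with a difference of -0.54 (SE 0.114, adjusted p = 0.0445). The receptors for lysophosphatidylserine thus included 1 that rose (Gpr174) and 1 that fell (P2ry10b), beside P2ry10 at 0.16 and Gpr34 at 0.00054. P2ry10b lost its call when any array but ERT2 replicate 2 was omitted (0.0733 to 0.146). Cysltr1, a leukotriene receptor, rose by 0.70 (SE 0.101, adjusted p = 0.00958), and Itm2a, a membrane protein of lymphocytes, rose by 0.52 (SE 0.066, adjusted p = 0.00592). Lpar4, a lysophosphatidic acid receptor between Cysltr1 and P2ry10, had -0.23 (SE 0.138, adjusted p = 0.514), and passed as lower when ERT2 replicate 2 was omitted (0.0162).

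Around Gpr34 no receptor gene passed. Gpr82, its neighbour, had -0.28 (SE 0.071, limma adjusted p = 0.0856) and passed under 2 of 17 alternatives, and Cask, a scaffold protein gene that spans both, had -0.37 (SE 0.098, adjusted p = 0.0987). Maoa, a monoamine oxidase, rose by 0.24 (SE 0.049, adjusted p = 0.0381), but missed the threshold under 11 of 17 alternatives. Among these were the omission of 1 array, whichever it was (0.0804 to 0.171), and median centring or a further quantile normalization (0.0556 each). Cyclic loess (0.0600) and an intensity trend (0.0674) were also among them.

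**Figure D3:**
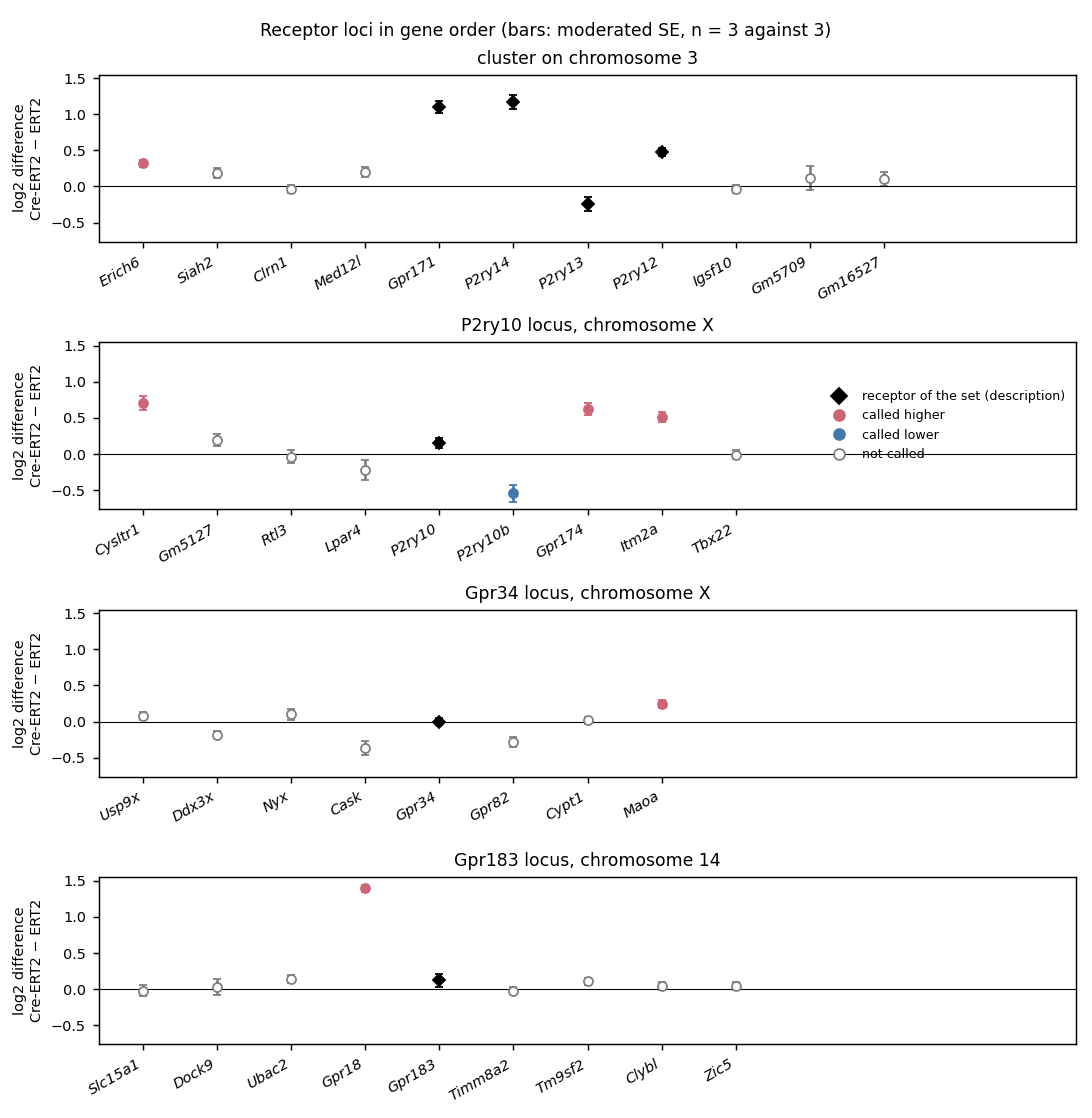
Log2 difference between Cre-ERT2 and ERT2 samples (vertical axis, bars show the SE) of each receptor and its neighbours, in gene order and not to distance, for 4 loci; genes not analysed here are not drawn. Diamonds are the 7 receptors, given as a description, and filled circles are neighbours past the threshold; Gpr18 stands out at 1.39 beside Gpr183 at 0.12.

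None of the 6 other P2Y-type receptors passed limma's threshold, with differences from -0.43 to 0.18 and a median of -0.02, where the median over all genes was 0.02. The lowest was P2ry1, an ADP receptor, with intensities of 233, 208 and 224 on the ERT2 arrays and 179, 141 and 173 on the Cre-ERT2 arrays (adjusted p = 0.0615). P2ry1 passed as lower under 6 of 17 alternatives, with adjusted p down to 0.0116. P2ry2, a receptor for ATP and UTP, had 0.18 (SE 0.057, adjusted p = 0.171) and P2ry6, a receptor for UDP, had 0.16 (SE 0.086, adjusted p = 0.447). P2ry4, Gpr17 and Oxgr1 lay within 0.05 of 0.

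Of 18 related receptors for lipids, peptides and protons tested, 4 rose and 3 fell, with a median of 0.05, where 8.1% of all genes passed in either direction. Besides Gpr18, Gpr174, Cysltr1 and P2ry10b these were Gpr55, Gpr65 and Lpar6. The first 4 were already counted among the neighbours above, so the counts of neighbours and of lists are not separate observations. Gpr65, a proton-sensing receptor of lymphocytes, had 373, 364 and 285 on the ERT2 arrays and 95.3, 97.7 and 97.0 on the Cre-ERT2 arrays, and it fell by 1.80 on the log2 scale (SE 0.105, limma adjusted p = 0.000228). Gpr55, a lysophospholipid receptor, rose by 0.52 (SE 0.056, adjusted p = 0.00275). Lpar6, named after its values were seen, had -0.41 (SE 0.078, adjusted p = 0.0296) and missed the threshold when ERT2 replicate 1 or a Cre-ERT2 array was omitted (0.0943 to 0.116). P2ry10b missed it there too, which left 1 fallen, and 2 fell when ERT2 replicate 3 was omitted.

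Genes that make or remove the ligands of the 7 receptors mostly did not pass limma's threshold. Of 12 UDP-sugar genes 0 rose and 1 fell, with a median of 0.03. Ugp2, which makes UDP-glucose, had -0.06 (SE 0.061, adjusted p = 0.716) and Ugdh, which consumes it, had 0.04 (SE 0.049, adjusted p = 0.811). Gys1, the glycogen synthase that uses UDP-glucose, fell by 0.26 (SE 0.052, adjusted p = 0.0335) and lost its call when any array but ERT2 replicate 3 was omitted (0.0626 to 0.139). Without ERT2 replicate 2 the transporter genes Slc35d1 and Slc35d2 passed and 2 rose. With all arrays Slc35d2 had 0.54 (SE 0.152, adjusted p = 0.112), and it passed as higher under 4 of 17 alternatives, with adjusted p down to 0.0144. Slc35d1 had 0.31 (SE 0.126, adjusted p = 0.283) and passed as higher under 2 of 18. None of the 4 oxysterol genes passed, with differences from -0.03 to 0.06 (Ch25h, Cyp7b1, Hsd3b7 and Cyp27a1). None of the 5 lysophosphatidylserine genes passed either, the nearest being Abhd12, a lipase that degrades this lipid, at 0.22 (adjusted p = 0.0541), which passed as higher under 5 of 18 alternatives. Pcsk1n, which encodes proSAAS, had 0.09 (SE 0.056, adjusted p = 0.552) and its protease gene Pcsk1 had 0.02 (SE 0.077, adjusted p = 0.954).

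Of 15 enzymes listed as ectoenzymes, 2 rose and 2 fell by limma's test, where 8.1% of all genes passed in either direction. The median of the list was 0.05. Ectoenzymes break down extracellular nucleotides, but the list also holds enzymes that act inside the cell, such as Entpd5. Entpd1, which encodes CD39, the main lymphocyte enzyme that removes extracellular ATP and ADP, had 1585, 1767 and 1406 on the ERT2 arrays and 858, 893 and 881 on the Cre-ERT2 arrays. It fell by 0.85 (SE 0.087, adjusted p = 0.00224). Nt5e, which encodes CD73, the next enzyme of that path, had 0.06 (SE 0.064, adjusted p = 0.746). Entpd5, an enzyme of the endoplasmic reticulum that cleaves UDP, rose by 0.41 (SE 0.057, adjusted p = 0.00855), Acpp, an acid phosphatase, rose by 0.38 (adjusted p = 0.0250), and Ada, the adenosine deaminase, fell by 0.33 (adjusted p = 0.0390). Acpp lost its call when any array but Cre-ERT2 replicate 3 was omitted (0.0649 to 0.0949) and Ada without any other than ERT2 replicate 3 (0.0870 to 0.157). In this list 1 rose and 1 fell when replicate 1 or 2 of either group was omitted.

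The ATP-gated P2X channels and the release and transport genes held few calls as fitted. Of 7 P2X channels 1 rose and 0 fell, with a median of 0.06. P2rx3, a channel of sensory neurons, rose by 0.48 (SE 0.092, limma adjusted p = 0.0328), lost its call when any array but Cre-ERT2 replicate 1 was omitted (0.0517 to 0.128) and had 0.28 (adjusted p = 0.0797) as the mean of its 2 probe sets. P2rx7, the channel known from lymphocytes and macrophages, had 0.23 (SE 0.050, adjusted p = 0.0543), and P2rx4 had 0.21 (adjusted p = 0.0890). Each of these passed as higher under 5 of 18 alternatives, so that 3 P2X channels rose with array weights, with a further quantile normalization or among probe sets of 1 gene alone, and 0 rose with the replicate block. Of 14 release and transport genes 2 rose and 0 fell, with a median of -0.0043: Calhm2, a pore-forming protein, by 0.52 (SE 0.056, adjusted p = 0.00272) and Slc29a3, a nucleoside transporter of lysosomes, by 0.42 (SE 0.068, adjusted p = 0.0168). Slc29a3 lost its call without any 1 of the Cre-ERT2 replicates (0.0541 to 0.0771). Slc28a2, a nucleoside transporter, had -0.30 (SE 0.075, adjusted p = 0.0790) and passed as lower under 5 of 18 alternatives. Panx1 had -0.18 (SE 0.064, adjusted p = 0.209) and passed as lower under 2 of 18, so that 2 of this list fell with cyclic loess or array weights. The adenosine receptors were not analysed here.

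Below the receptors, G proteins and their effectors carry the signal to cyclic AMP and calcium. Of 11 alpha subunits 1 rose and 1 fell, with a median of 0.02. Gnao1, an inhibitory alpha subunit, had 383, 383 and 367 on the ERT2 arrays and 188, 171 and 176 on the Cre-ERT2 arrays, and it fell by 1.08 (SE 0.055, limma adjusted p = 0.000139). Gna15, a promiscuous alpha subunit of blood cells that activates phospholipase C, rose by 0.75 (SE 0.058, adjusted p = 0.000653), from 2132 ± 86.4 (SD, n = 3) to 3589 ± 159 (SD, n = 3). Gnai2, the main inhibitory subunit of lymphocytes, had -0.13 (SE 0.042, adjusted p = 0.177), and passed as lower with an intensity trend (0.0193).

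Of 13 adenylyl cyclases and phospholipases C beta 4 rose and 0 fell, with a median of 0.04, where 4.38% of all genes rose. Adcy6, a cyclase that inhibitory alpha subunits restrain, had 772, 871 and 710 on the ERT2 arrays and 1540, 1674 and 1624 on the Cre-ERT2 arrays, and it rose by 1.04 (SE 0.084, limma adjusted p = 0.000799). Adcy7, a cyclase of blood cells, rose by 0.58, Plcb2, a phospholipase of blood cells, by 0.47 and Adcy3 by 0.39 (adjusted p from 0.0125 to 0.0149). Adcy7 lost its call without Cre-ERT2 replicate 3 (0.0578), Adcy3 when Cre-ERT2 replicate 2, Cre-ERT2 replicate 3 or ERT2 replicate 1 was omitted (0.0511 to 0.0630), and Plcb2 when ERT2 replicate 1 or a Cre-ERT2 array was omitted (0.0504 to 0.0670). Omitting ERT2 replicate 1 or Cre-ERT2 replicate 2 left 2 risen, and omitting Cre-ERT2 replicate 3 left 1.

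Of 17 RGS proteins, receptor kinases and arrestins, which end receptor signals, 1 rose and 3 fell, with a median of -0.01. Over all genes 8.1% passed in either direction. Rgs18, which speeds the turn-off of G proteins in blood cells, had 2630, 2815 and 2601 on the ERT2 arrays and 757, 705 and 743 on the Cre-ERT2 arrays, and it fell by 1.87 (SE 0.056, limma adjusted p = 2.6e-05). Arrb1, which encodes beta-arrestin, fell by 0.73 (SE 0.065, adjusted p = 0.00125). Rgs12 fell by 0.33 (adjusted p = 0.0296), a call lost with each array omitted in turn (0.0605 to 0.0970), so that 2 had fallen. Grk5, a receptor kinase, rose by 0.46 (adjusted p = 0.0293) and lost its call when any array but ERT2 replicate 2 was omitted (0.0849 to 0.114), which left 0 risen.

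**Figure D4:**
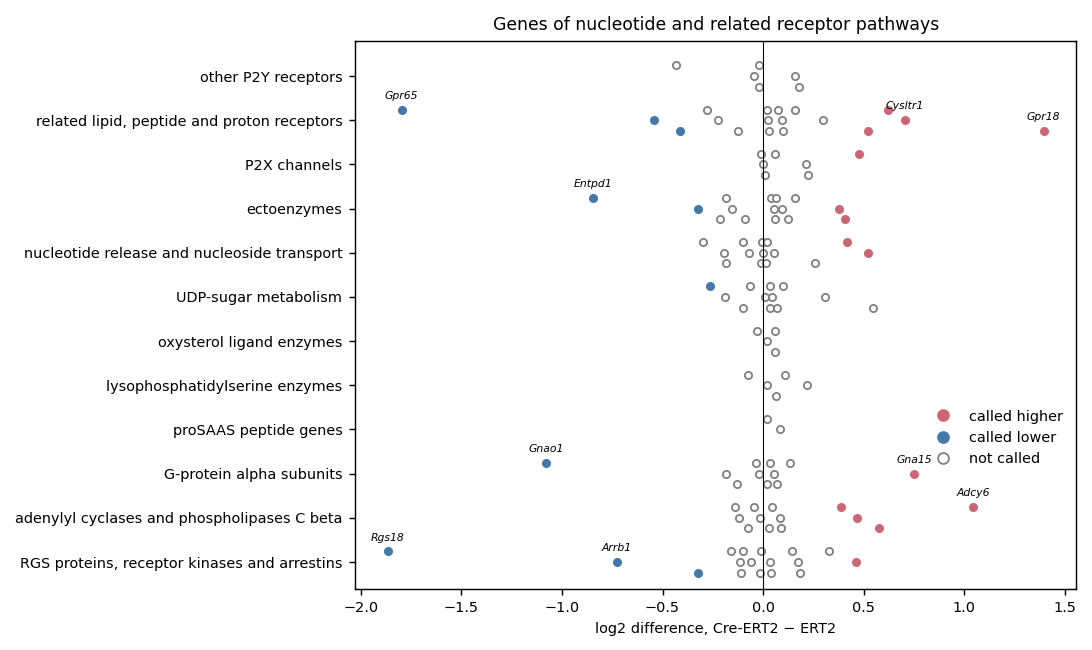
Log2 difference between Cre-ERT2 and ERT2 samples (horizontal axis) of the genes of each pathway list (rows), 1 point a gene, filled where limma's adjusted p was under 0.05. Over 125 genes that are not among the 7 receptors (Med12l, 1 of them, is not drawn) 15 rose and 10 fell, with Gpr18 at 1.39 and Rgs18 at -1.87 as the ends of the range. Over all genes 4.38% rose and 3.72% fell.

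Over all these lists 125 of 140 genes could be tested, and 25 (20.0%) passed limma's threshold, where 8.1% of all genes passed. The median log2 difference was 0.03 against 0.02 over all genes. The count of each single list above is to be read beside the same 8.1%. The lists are small and were chosen for these receptors, so the share is a description. Omitting replicate 2 or 3 of the Cre-ERT2 group left 9 risen and 5 fallen, and omitting replicate 1 of either group left 5 fallen.

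The genes whose profile over the 6 arrays was most like that of P2ry14, by the root mean square distance of centred log2 values, were Zfp760 (0.0707), Noxred1 (0.0712), Zfp677 (0.0882), Dio2 (0.0905) and Dkkl1 (0.101). Gpr171 ranked 29th in that order over the 19938 genes, at 0.135. The genes most like Gpr171 were Dglucy (0.0335), Adcy6 (0.0363), Gpm6b (0.0439), Iqcg (0.0461) and AW209491 (0.0474), and P2ry14 ranked 71st. The log2 differences of these genes lay between 1.11 and 1.25 for those like P2ry14 and between 1.02 and 1.09 for those like Gpr171. The distance includes the difference between the groups, by which P2ry14 and Gpr171 were singled out. Their closeness to each other is therefore no support for a shared profile.

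Markers of other cell types were read beside these results, since P2ry12, P2ry13 and P2ry14 are known from myeloid cells and P2ry12 from platelets. Of 10 macrophage, microglia and granulocyte markers 1 rose and 1 fell: Tmem119, known from microglia and from bone-forming cells, rose by 0.57 (limma adjusted p = 0.000894) and Itgam fell by 0.49 (adjusted p = 0.0129), a call lost without ERT2 replicate 1 (0.0574) or Cre-ERT2 replicate 2 (0.0558). Their summed intensity was 5892 to 6123 on the ERT2 arrays and 8059 to 8448 on the Cre-ERT2 arrays. The sum without Tmem119, computed after its values were seen, was 1306 to 1359 and 1247 to 1354. Csf1r, the macrophage growth factor receptor, had means of 146 and 145, and Adgre1, the F4/80 antigen, had 85.2 and 81.7. Of 4 megakaryocyte and platelet markers 0 rose and 0 fell, with sums of 628 to 669 and 650 to 674. Of 6 dendritic cell markers 1 rose, Flt3 (0.34, adjusted p = 0.0428), and the sums were 1106 to 1132 and 1196 to 1227. Flt3 missed the threshold under 8 of 18 alternatives: with each of the 6 arrays omitted in turn (0.0516 to 0.152), with median centring and with cyclic loess. None of 6 T-cell, 6 NK-cell, 3 erythroid or 5 stromal markers passed, where 8.1% of all genes passed in either direction. An intensity on this array has no zero point that marks an absent transcript, and the part of these markers in the results was not tested.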

How the data were processed

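Gene expression was measured on 6 Affymetrix arrays. The deposited table gives 1 intensity per probe set and array on a linear scale, and the authors' values came from RMA, per the submitters' processing notes. No source used here gives its version, the annotation build or scan batches. Quantile normalization within RMA would remove a common shift of the transcriptome. Of 35556 probe sets the platform table names 1 gene for 21789, several for 1621 and none for 12146. Where a gene had several probe sets, the brightest on average stood for it, and each of the 7 receptors had 1. Log2(intensity + 1) was fitted with limma 3.58.1 in R 4.3.3 on the 6 samples by group alone. The p-values were adjusted by Benjamini-Hochberg across the whole table, and those under 0.05 were called. The fit was tested on simulated data. Neighbours, motifs and lists followed fixed rules: up to 4 genes a list with the smallest p, all of lists of 6 or fewer, 4 neighbours a side and the 5 likest genes. Nt5e, P2rx4, P2rx7, Panx1, Slc28a2, Slc35d1, Slc35d2, Ugp2, Ugdh, Gnai2 and the markers that did not pass were named outside these rules, after their values were seen. The receptors and lists were chosen with earlier results of these data known. A planned comparison of protein sequences was not made.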

Additional observations from a re-analysis of the deposited data

How the results depend on the processing

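The differences of all 7 receptors moved by less than the SD between replicates under each alternative that could be computed: an intensity trend, robust fitting, the brighter part of the probe sets (which holds Gpr171, P2ry13 and P2ry10 alone), cyclic loess, median centring, array weights, quantile normalization once more, a pseudocount of 16 or none, averaging the probe sets that share a gene, named probe sets alone, the replicate number as a block, and each array left out. They ranged from 1.08 to 1.23 for P2ry14, 1.04 to 1.17 for Gpr171, 0.44 to 0.52 for P2ry12, -0.31 to -0.15 for P2ry13, 0.11 to 0.22 for P2ry10, -0.03 to 0.03 for Gpr34 and 0.07 to 0.20 for Gpr183. Against 1143 probe sets higher and 1009 lower as reported, with estimated array weights 2415 probe sets were higher and 1612 lower, and 23 pathway genes rose and 18 fell; the cause was not tested. With 1 array left out, 606 to 1319 probe sets were higher and 654 to 883 lower, and 9 to 16 pathway genes rose and 5 to 8 fell, from fewer samples. With the replicate block 959 probe sets were higher and 877 lower, and 15 pathway genes rose and 8 fell; deviations of same-numbered samples from their group means correlated at 0.20, 0.34 and -0.05, so the numbers were not taken as pairs, and not every sample correlated best with its own number. Dim probe sets limit P2ry14, P2ry12, Gpr34 and Gpr183, since no detection calls were used. Among pathway genes that did not pass as reported, P2ry1 passed under 6 of 17 alternatives and P2rx4, P2rx7, Slc28a2 and Abhd12 under 5 of 18 each.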
